A study of Homo sapiens with 6 samples.

Results

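The genes described here are 41 members of the ATF4 amino-acid stress response, taken by name from a list of integrated stress response genes, enzymes of serine, glycine, asparagine, proline and cysteine synthesis, amino-acid transporters and tRNA synthetases. All 41 were among the 26475 genes of the deposited table over all libraries. The rule that names them uses no measured value, but the members were chosen with earlier results of these data known. Messenger RNA was sequenced in 6 libraries of human lung cancer cells, 2 each of PC9-AMG, PC9-BrM4 and PC9, and every group was grown in MGS. PC9 is a widely used adenocarcinoma line from human lung that carries an EGFR-activating mutation, and PC9-AMG and PC9-BrM4 are, by their names, lines derived from it. AMG, BrM4 and MGS are not expanded in the labels, which name no other genotype or agent and do not say whether a derivative is a clone or a pool. The word mix in the library names is left unexplained there too.

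ATF4 is a basic leucine zipper transcription factor at the centre of the integrated stress response. When amino acids run short or proteins misfold, kinases phosphorylate the translation factor eIF2-alpha, general protein synthesis falls, and the ATF4 message, which has short upstream reading frames in its leader, is translated more. ATF4 with C/EBP partners then raises transcription of genes that make, import and charge amino acids onto tRNA, and of stress factors such as DDIT3 (CHOP) and TRIB3 that limit the response or move the cell towards death. Because ATF4 is controlled largely at translation, its mRNA and its protein can differ, and protein was not measured here.

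ATF4 and C/EBP factors bind a composite element whose core is TGATGNAA. This motif was searched on both strands in RefSeq promoter windows of GRCh38.p14, which run from 250 bases before to 50 bases after a transcription start, and no other motif was searched. Windows were found for 35 of the 41 members; NUPR1, PSPH, SHMT2, ALDH1L2, PYCR1 and YARS had no match. Of the 35, 12 members (34.3%) held the motif, as did 12 of their 51 windows (23.5%). Over all promoters of that length, 3.62% of 35116 windows and 4.46% of 27305 genes held it. Among the matched tRNA synthetases 6 of 9 held the motif, against 6 of 26 other matched members. The members were listed as genes of the ATF4 response, so their share beside that of all genes is not independent of how the list was made. A match is a description of the letters, not a bound site. The 12 matches are shown with 8 bases on either side where the window allows, since they are the sequences behind the counts of the motif, with the motif in capitals on the strand of the gene. TTNCATCA is the motif read on the opposite strand.
ATF3 (chr1:212565208-212565231, plus strand): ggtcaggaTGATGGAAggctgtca
CEBPG (chr19:33374063-33374086, plus strand): gcggcgtcTGATGCAAcctgccgg
CHAC1 (chr15:40953254-40953277, plus strand): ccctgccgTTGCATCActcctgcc
ASNS (chr7:97872461-97872484, minus strand): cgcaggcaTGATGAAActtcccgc
SLC3A2 (chr11:62881728-62881748, plus strand): aggactccTTACATCAgctcc
SLC7A1 (chr13:29595666-29595689, minus strand): cgcactgcTGATGAAAcctggcgc
AARS (chr16:70289678-70289701, minus strand): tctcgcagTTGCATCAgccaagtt
GARS (chr7:30594837-30594860, plus strand): cgcggcgaTTTCATCAtgctccga
NARS (chr18:57621807-57621830, minus strand): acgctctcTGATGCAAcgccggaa
CARS (chr11:3057410-3057433, minus strand): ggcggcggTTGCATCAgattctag
MARS (chr12:57488056-57488079, plus strand): ggttccggTTGCATCAgcgaggga
IARS (chr9:92293695-92293718, minus strand): tcagcgcgTTGCATCAcctccgtg

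The first base of these matches lay between 209 bases before the start, in CHAC1, and position 38 after it, in SLC3A2. Whole windows are shown for 3 members that hold the motif and whose transcripts were among the clearest rises (CHAC1, ASNS and GARS), and for 3 with large differences whose window has no match (CTH, GDF15 and DDIT4). Capitals again mark the motif. The absence of a match says only that these letters are not in this window.
CHAC1 (chr15:40953221-40953520, plus strand): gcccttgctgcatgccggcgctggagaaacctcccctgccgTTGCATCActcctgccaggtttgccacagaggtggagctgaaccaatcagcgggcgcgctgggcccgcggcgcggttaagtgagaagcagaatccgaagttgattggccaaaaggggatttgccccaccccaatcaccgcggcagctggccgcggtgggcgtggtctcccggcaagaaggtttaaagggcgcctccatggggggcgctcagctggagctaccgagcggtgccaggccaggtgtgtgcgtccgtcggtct
ASNS (chr7:97872359-97872658, minus strand): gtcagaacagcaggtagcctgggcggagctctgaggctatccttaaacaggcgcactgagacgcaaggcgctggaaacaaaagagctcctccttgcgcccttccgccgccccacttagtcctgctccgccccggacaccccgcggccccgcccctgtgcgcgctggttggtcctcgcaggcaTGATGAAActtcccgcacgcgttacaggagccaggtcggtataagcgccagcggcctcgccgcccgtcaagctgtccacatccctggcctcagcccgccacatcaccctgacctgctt
GARS (chr7:30594628-30594927, plus strand): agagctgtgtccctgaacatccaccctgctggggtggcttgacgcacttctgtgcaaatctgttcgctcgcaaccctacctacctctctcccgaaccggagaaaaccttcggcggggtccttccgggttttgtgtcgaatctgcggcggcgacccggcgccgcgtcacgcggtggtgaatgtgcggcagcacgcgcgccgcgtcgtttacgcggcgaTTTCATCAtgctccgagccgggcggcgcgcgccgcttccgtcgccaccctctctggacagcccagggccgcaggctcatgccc
CTH (chr1:70411018-70411317, plus strand): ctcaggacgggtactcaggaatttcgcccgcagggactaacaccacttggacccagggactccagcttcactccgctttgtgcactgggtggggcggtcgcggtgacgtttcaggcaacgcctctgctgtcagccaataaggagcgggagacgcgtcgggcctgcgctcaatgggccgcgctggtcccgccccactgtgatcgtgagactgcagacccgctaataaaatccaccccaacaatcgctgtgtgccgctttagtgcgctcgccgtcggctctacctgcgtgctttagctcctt
GDF15 (chr19:18385908-18386207, plus strand): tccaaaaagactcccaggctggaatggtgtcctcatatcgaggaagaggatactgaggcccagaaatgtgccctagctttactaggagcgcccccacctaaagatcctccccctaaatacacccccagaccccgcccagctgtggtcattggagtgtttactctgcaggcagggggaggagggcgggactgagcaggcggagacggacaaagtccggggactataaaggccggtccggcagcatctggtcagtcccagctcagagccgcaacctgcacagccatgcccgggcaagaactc
DDIT4 (chr10:72273674-72273973, plus strand): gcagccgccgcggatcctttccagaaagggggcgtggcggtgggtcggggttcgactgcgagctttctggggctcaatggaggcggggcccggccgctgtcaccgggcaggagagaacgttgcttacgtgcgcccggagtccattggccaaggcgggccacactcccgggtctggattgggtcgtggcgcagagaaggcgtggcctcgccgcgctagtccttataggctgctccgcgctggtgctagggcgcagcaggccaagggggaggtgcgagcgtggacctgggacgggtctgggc

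Levels are given as TPM (a share of all transcripts, corrected for transcript length), always library 1 before library 2, and levels of different genes are compared on this scale. Differences are on the log2(TPM + 1) scale with their SE. A gene was called at an adjusted p under 0.05 over all 14627 tested genes (limma, two-sided), and "rose", "fell", "higher" and "lower" are used of called differences. The files give no read counts, so depth in reads is unknown; a gene at 1 TPM had between 0.606 and 0.822 reads per base. Whether the libraries of 1 group came from separate cultures is not stated, so p-values measure the spread between libraries, which may be technical. All 7 epithelial markers of lung carcinoma (EPCAM, KRT7, KRT8, KRT18, KRT19, CDH1 and EGFR) were present, with summed levels of 13452 to 13980 TPM in PC9-AMG, 11714 to 12081 TPM in PC9-BrM4 and 15445 to 15709 TPM in PC9. Of these, KRT7 and KRT19 were lower in PC9-AMG than in PC9, and KRT7, KRT18 and KRT19 in PC9-BrM4. No epithelial marker was called higher than in PC9. Between the derivatives KRT7 and KRT18 were higher in PC9-AMG, while EPCAM, CDH1 and EGFR were lower. EPCAM had 634 and 741 TPM in PC9-AMG, 846 and 856 TPM in PC9-BrM4 and 705 and 698 TPM in PC9. Markers of other cells that reached 1 TPM in 2 libraries numbered 2 of 8 for astrocytes, 3 of 10 for microglia and macrophages, 2 of 8 for oligodendrocytes, 3 of 6 for neurons and 1 of 8 for fibroblasts and endothelium. The astrocyte list summed to 30.3 to 34.0 TPM in PC9-AMG, 20.7 to 23.5 TPM in PC9-BrM4 and 22.6 to 23.7 TPM in PC9, and the microglia and macrophage list to 225 to 246 TPM in PC9-AMG, 166 to 181 TPM in PC9-BrM4 and 226 to 232 TPM in PC9. Of these markers SLC1A3, a glutamate transporter, had 0.652 and 0.361 TPM in PC9-AMG, 3.44 and 2.12 TPM in PC9-BrM4 and 0 and 0 TPM in PC9, and was higher in PC9-BrM4 than in PC9 and lower in PC9-AMG than in PC9-BrM4. SLC1A3 was under 1 TPM outside PC9-BrM4 and was tested because of its PC9-BrM4 libraries, so its higher level there was fixed in advance. ALDH1L1 was higher in PC9-AMG than in PC9-BrM4. ITGAM, an integrin of myeloid cells, had 6.96 and 6.19 TPM in PC9-AMG, 8.54 and 6.57 TPM in PC9-BrM4 and 3.40 and 3.36 TPM in PC9, and was higher in both derivatives. CD68, a lysosomal protein abundant in macrophages, had 229.5 and 211 TPM in PC9-AMG, 163 and 149.6 TPM in PC9-BrM4 and 222 and 215 TPM in PC9; it was lower in PC9-BrM4 than in PC9, and higher in PC9-AMG than in PC9-BrM4. The part of these markers in the members' differences was not tested. The astrocyte markers GFAP and S100B, the microglial markers AIF1, CX3CR1, P2RY12, TMEM119, C1QA and C1QB, the oligodendrocyte markers MOG, OLIG2 and PDGFRA, and the neuronal markers SNAP25 and NEFL were at 0 in all 6 libraries.

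All 41 members passed the filter of at least 1 TPM in at least 2 libraries. ALDH1L2 passed through its PC9-BrM4 libraries and was under 1 TPM elsewhere, so its higher level in PC9-BrM4 was fixed in advance. Its call in PC9-BrM4 against PC9 is nonetheless counted below. In PC9-AMG against PC9, 15 members were called, 14 higher and 1 lower, where 7.49% of all tested genes were called, 3.67% higher and 3.82% lower. In PC9-BrM4 against PC9, 21 were called, 17 higher and 4 lower, where 16.3% of all tested genes were called, 9.89% higher and 6.45% lower. Both counts use the same PC9 libraries, and the members were chosen with earlier results of these data known. Between the derivatives, PC9-AMG against PC9-BrM4, 13 members were called, 6 higher and 7 lower, where 18.6% of all tested genes were called, 6.31% higher and 12.3% lower. In these bulk libraries, fewer cells of a type and less RNA per cell cannot be told apart.

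The median member differed by 0.25 in PC9-AMG against PC9, where the median of all tested genes was -0.05, and 35 of 41 members lay above that median of all genes. It differed by 0.33 in PC9-BrM4 against PC9, where the median of all tested genes was 0.09, and 30 of 41 lay above it. Between the derivatives the median member was at -0.09 and the median of all tested genes at -0.13, with 25 of 41 members above it. Because of that last shift of all genes, differences between the derivatives are given below as fitted and relative to it. Without PC9 library 2, 3 members were called in PC9-AMG, without PC9 library 1, 5, and without PC9-AMG library 2, 7; in PC9-BrM4 12 were called without either PC9 library, and between the derivatives 6 without PC9-BrM4 library 1. The split between the derivatives also moved with scaling, to 14 higher and 3 lower with median centring, 9 and 5 with quantile normalization, and 12 and 4 with FPKM; in PC9-BrM4 against PC9 it was 14 and 5 with median centring. Over all tested genes the calls split into 537 higher and 559 lower in PC9-AMG against PC9 (685 and 436 with median centring, 902 and 561 with FPKM), 1446 and 943 in PC9-BrM4 against PC9 (917 and 1293 with median centring, 1088 and 1253 with quantile normalization), and 923 and 1797 between the derivatives (1606 and 900, and 1326 and 1137, with those scalings, and 1341 and 1283 with FPKM).

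Summed over all 41 members, the level was 4702 and 4471 TPM in PC9-AMG, 4571 and 4347 TPM in PC9-BrM4 and 3993 and 4042 TPM in PC9. Each derivative library lay above both PC9 libraries. The 10 tRNA synthetases summed to 1138 and 1109 TPM in PC9-AMG, 1269 and 1126 TPM in PC9-BrM4 and 892 and 885 TPM in PC9, again without overlap between derivatives and PC9. The sum of the 4 stress effectors ran the other way, at 728 and 663 TPM in PC9-AMG, 584 and 589 TPM in PC9-BrM4 and 803 and 816 TPM in PC9, and DDIT4 made up most of it.

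**Figure D1:**
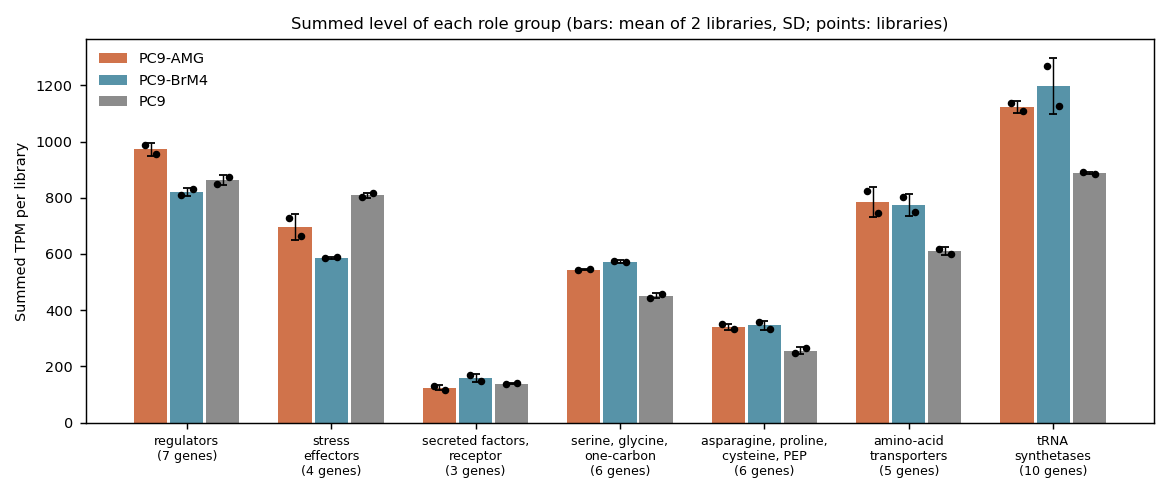
Summed TPM of the members by role group; bars are means of 2 libraries with SD, points are libraries, for PC9-AMG, PC9-BrM4 and PC9. Synthetases summed to 1124 TPM in PC9-AMG and 1198 TPM in PC9-BrM4 against 888 TPM in PC9, while the 4 stress effectors summed to 695 and 587 TPM against 809.7 TPM.

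Among the 7 regulators, ATF4 itself was 1 of the most abundant members, and its mRNA did not pass the test against PC9 in either derivative. ATF4 had 517 and 505 TPM in PC9-AMG, 409 and 428 TPM in PC9-BrM4 and 458 and 487 TPM in PC9. The PC9-AMG libraries were the highest and the PC9-BrM4 libraries the lowest, and no groups overlapped. The difference was 0.11 ± 0.08 (adjusted p = 0.391) in PC9-AMG against PC9, with a 95% interval of -0.06 to 0.29, and -0.17 ± 0.08 (adjusted p = 0.159) in PC9-BrM4 against PC9, with an interval of -0.35 to -0.002. Between the derivatives ATF4 was higher in PC9-AMG by 0.29 ± 0.08 (adjusted p = 0.0298), or 0.42 relative to the median of all tested genes. That call was lost without PC9-AMG library 1, PC9-AMG library 2 or PC9-BrM4 library 1 (adjusted p = 0.0761, 0.0634 and 0.109).

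NUPR1, a small chromatin-associated stress protein, showed the largest rise of any member in both derivatives. Its level was 17.8 and 14.1 TPM in PC9-AMG, 29.3 and 35.5 TPM in PC9-BrM4 and 2.19 and 2.37 TPM in PC9. PC9-BrM4 was highest, PC9-AMG intermediate and PC9 lowest, with no overlap. NUPR1 rose by 2.36 ± 0.17 (adjusted p = 0.000312) in PC9-AMG, a mean TPM 7.0 times that of PC9, and by 3.34 ± 0.17 (adjusted p = 2.18e-06) in PC9-BrM4, 14.2 times that of PC9. It was lower in PC9-AMG than in PC9-BrM4 by 0.98 ± 0.17 (adjusted p = 0.00403), or -0.85 relative to all genes, and these calls held in every alternative run. In PC9 the gene had 1.37 and 1.48 reads per base. TRIB3, a pseudokinase that binds and inhibits ATF4, had 68.2 and 65.2 TPM in PC9-AMG, 65.4 and 68.7 TPM in PC9-BrM4 and 43.0 and 41.1 TPM in PC9. All derivative libraries stood above both PC9 libraries and overlapped each other. TRIB3 rose by 0.65 ± 0.10 (adjusted p = 0.00860) in PC9-AMG and by 0.66 ± 0.10 (adjusted p = 0.00240) in PC9-BrM4, the PC9-AMG call being lost without PC9 library 1 or PC9 library 2 (adjusted p = 0.0753 and 0.10).

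DDIT3, which encodes the pro-apoptotic factor CHOP, was high in PC9-AMG. It had 33.4 and 44.5 TPM in PC9-AMG, 15.4 and 13.2 TPM in PC9-BrM4 and 18.6 and 14.7 TPM in PC9, so that PC9-BrM4 and PC9 overlapped and both PC9-AMG libraries lay above all others. DDIT3 rose by 1.17 ± 0.17 (adjusted p = 0.00704) in PC9-AMG against PC9, a call that was lost without PC9-AMG library 2 or PC9 library 2 (adjusted p = 0.0688 and 0.0537) and with no filter on low values (0.0565). Its difference in PC9-BrM4 against PC9 was -0.20 ± 0.17 (adjusted p = 0.479), with a 95% interval of -0.59 to 0.19. PC9-AMG exceeded PC9-BrM4 by 1.37 ± 0.17 (adjusted p = 0.000808), or 1.5 relative to all genes, in every alternative run. The DDIT3 model overlaps that of MARS by 68 bases on the opposite strand, and whether counting used the strand is not stated.

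The C/EBP members moved less. CEBPG, which dimerises with ATF4, had 38.2 and 42.6 TPM in PC9-AMG, 35.3 and 32.6 TPM in PC9-BrM4 and 30.0 and 26.9 TPM in PC9, with no overlap and PC9-AMG highest. It rose by 0.49 ± 0.12 (adjusted p = 0.0413) in PC9-AMG, a call that was lost without any 1 of the 4 libraries (adjusted p between 0.0726 and 0.334). Its difference in PC9-BrM4 was 0.25 ± 0.12 (adjusted p = 0.206). CEBPB, a C/EBP factor that also acts in inflammation and differentiation, had 147 and 148 TPM in PC9-AMG, 111 and 121 TPM in PC9-BrM4 and 156 and 165 TPM in PC9. It was lowest in PC9-BrM4, where it fell by 0.46 ± 0.09 (adjusted p = 0.00886) against PC9, a call that was lost without PC9-BrM4 library 1, PC9 library 1 or PC9 library 2 (adjusted p = 0.0518, 0.0680 and 0.131). CEBPB was higher in PC9-AMG than in PC9-BrM4 by 0.34 ± 0.09 (adjusted p = 0.0298), or 0.47 relative to all genes, which was lost without PC9-AMG library 1, PC9-AMG library 2 or PC9-BrM4 library 1 (adjusted p = 0.0644, 0.0795 and 0.124). The stress-induced factor ATF3 ranged from 132 to 168 TPM over the 6 libraries, with overlapping groups, and was called in no comparison (adjusted p = 0.574, 0.918 and 0.426 in the 3 comparisons).

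**Figure D2:**
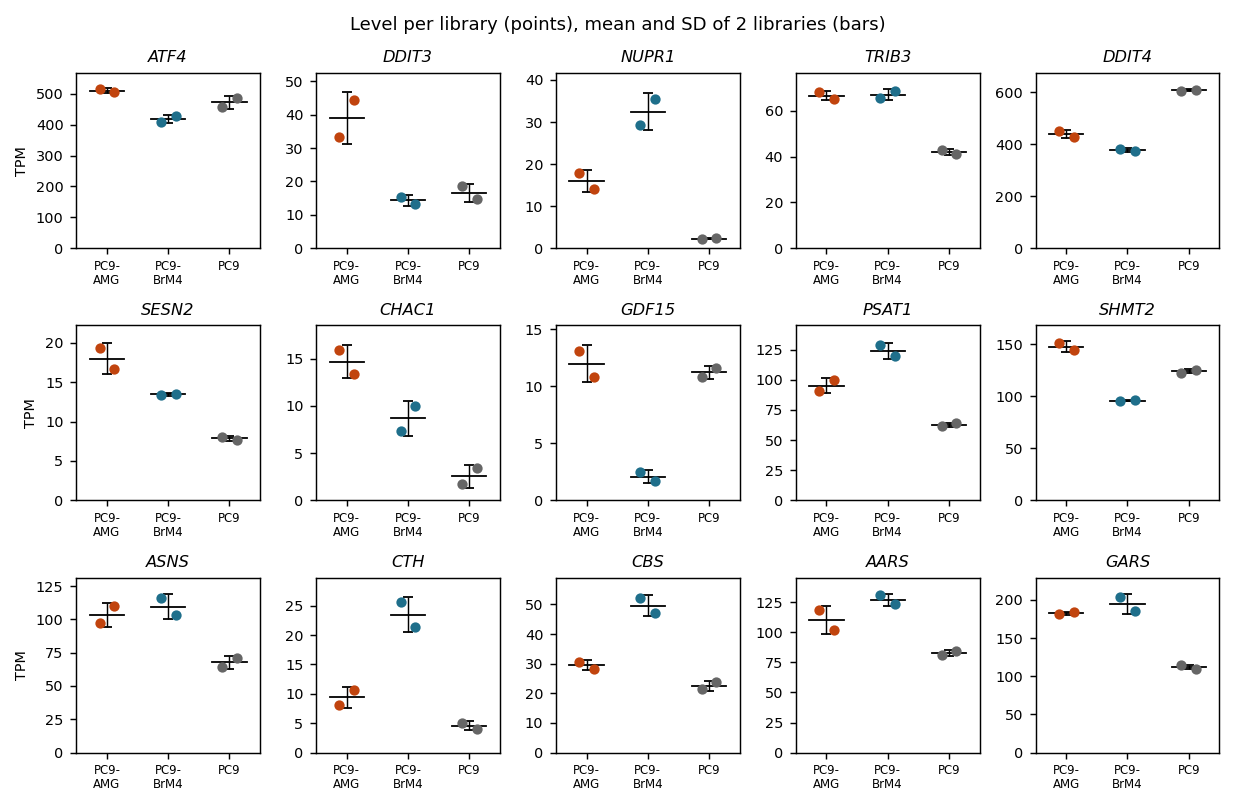
TPM of ATF4 and of the 14 members with a call that held in every alternative in at least 1 comparison; points are libraries, bars the mean and SD of 2, for PC9-AMG, PC9-BrM4 and PC9, each panel with its own axis from 0. NUPR1, CHAC1, SESN2 and GARS lie above PC9 in both derivatives, DDIT3 reaches 33.4 and 44.5 TPM in PC9-AMG, and GDF15 is low in PC9-BrM4 at 2.46 and 1.66 TPM.

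Of the 4 stress effectors, CHAC1 and SESN2 rose in both derivatives, DDIT4 fell in both, and PPP1R15A was not called. CHAC1, which degrades glutathione, had 15.9 and 13.4 TPM in PC9-AMG, 7.38 and 9.94 TPM in PC9-BrM4 and 1.70 and 3.40 TPM in PC9. PC9-AMG was highest and PC9 lowest, with no overlap. CHAC1 rose by 2.18 ± 0.24 (adjusted p = 0.00206) in PC9-AMG, 5.74 times the PC9 mean, and by 1.47 ± 0.24 (adjusted p = 0.00342) in PC9-BrM4, 3.40 times the PC9 mean, in every alternative run. Between the derivatives the difference was 0.70 ± 0.24 (adjusted p = 0.0721), with a 95% interval of 0.16 to 1.25, or 0.83 relative to all genes, and was called in 5 alternatives, median centring among them. PC9 values rest on little sequence, at 1.13 and 2.13 reads per base.

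SESN2, a leucine sensor that restrains mTORC1, had 19.4 and 16.6 TPM in PC9-AMG, 13.3 and 13.6 TPM in PC9-BrM4 and 8.06 and 7.67 TPM in PC9. Its groups did not overlap, PC9-AMG being highest. SESN2 rose by 1.10 ± 0.14 (adjusted p = 0.00399) in PC9-AMG, in every alternative run, and by 0.70 ± 0.14 (adjusted p = 0.0100) in PC9-BrM4, a call that was lost without PC9 library 1 or PC9 library 2 (adjusted p = 0.0709 and 0.0994). DDIT4, another inhibitor of mTORC1 and the most abundant member on average, had 452 and 429.6 TPM in PC9-AMG, 383 and 373 TPM in PC9-BrM4 and 607 and 611 TPM in PC9. Every derivative library lay below both PC9 libraries, and PC9-BrM4 was lowest. DDIT4 fell by 0.47 ± 0.08 (adjusted p = 0.00931) in PC9-AMG, a call that was lost without PC9-AMG library 2, PC9 library 1 or PC9 library 2 (adjusted p = 0.0552, 0.111 and 0.117), and by 0.69 ± 0.08 (adjusted p = 0.000299) in PC9-BrM4, in every alternative run. So the 2 mTORC1 inhibitors among the members had opposite signs in each derivative. PPP1R15A, which brings a phosphatase to eIF2-alpha, ranged from 181 to 240.1 TPM, with differences of 0.22 ± 0.10 (adjusted p = 0.211) in PC9-AMG and -0.03 ± 0.10 (adjusted p = 0.883) in PC9-BrM4.

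GDF15, a secreted cytokine of the TGF-beta family that marks cell stress, separated the derivatives. It had 13.1 and 10.8 TPM in PC9-AMG, 2.46 and 1.66 TPM in PC9-BrM4 and 10.8 and 11.6 TPM in PC9. PC9-AMG and PC9 overlapped, and both PC9-BrM4 libraries lay far below them. GDF15 fell by 2.01 ± 0.19 (adjusted p = 0.000126) in PC9-BrM4 against PC9, its mean being 0.184 times that of PC9. Its difference in PC9-AMG against PC9 was 0.08 ± 0.19 (adjusted p = 0.835), with a 95% interval of -0.34 to 0.50. PC9-AMG exceeded PC9-BrM4 by 2.09 ± 0.19 (adjusted p = 0.000119), or 2.22 relative to all genes, 5.80 times its mean. The fall and the difference between derivatives held in every alternative run. In PC9-BrM4 the gene had 1.57 and 1.01 reads per base.

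STC2, a secreted glycoprotein induced by ER stress, had 101 and 89.6 TPM in PC9-AMG, 142 and 127 TPM in PC9-BrM4 and 105 and 110.1 TPM in PC9. PC9-BrM4 was highest and PC9-AMG lowest, with no overlap. STC2 was lower in PC9-AMG than in PC9-BrM4 by 0.49 ± 0.11 (adjusted p = 0.0116), or -0.36 relative to all genes, a call that was lost without PC9-AMG library 2 or PC9-BrM4 library 1 (adjusted p = 0.0612 and 0.0888) and with median centring (0.0587). Against PC9 its differences were -0.17 ± 0.11 (adjusted p = 0.347) in PC9-AMG and 0.32 ± 0.11 (adjusted p = 0.0658) in PC9-BrM4. The lipoprotein receptor VLDLR ranged from 16.1 to 25.3 TPM and was called in no comparison.

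Serine is made from a glycolytic intermediate by PHGDH, PSAT1 and PSPH in turn, and mitochondrial SHMT2, MTHFD2 and ALDH1L2 then handle its one-carbon unit. All 3 serine enzymes were at their highest in PC9-BrM4. PSAT1, the aminotransferase, had 90.8 and 99.6 TPM in PC9-AMG, 129 and 119 TPM in PC9-BrM4 and 61.6 and 64.0 TPM in PC9, with no overlap between groups. It rose by 0.59 ± 0.10 (adjusted p = 0.0109) in PC9-AMG and by 0.97 ± 0.10 (adjusted p = 0.000207) in PC9-BrM4, 1.98 times the PC9 mean. The PC9-AMG call was lost without PC9-AMG library 2, PC9 library 1 or PC9 library 2 (adjusted p = 0.0661, 0.120 and 0.0905), while the PC9-BrM4 call held in every alternative run. PSAT1 was lower in PC9-AMG than in PC9-BrM4 by 0.38 ± 0.10 (adjusted p = 0.0277), or -0.25 relative to all genes. That call was lost without PC9-AMG library 1 or PC9-BrM4 library 1 (adjusted p = 0.0866 and 0.128) and with median centring (0.216).

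PHGDH, the first enzyme of the pathway, had 168 and 154 TPM in PC9-AMG, 206 and 212 TPM in PC9-BrM4 and 139.8 and 147 TPM in PC9. Both PC9-BrM4 libraries were above all others, and PC9-AMG lay above PC9. PHGDH rose by 0.54 ± 0.09 (adjusted p = 0.00350) in PC9-BrM4, a call that was lost without PC9 library 1 (adjusted p = 0.0612), and its difference in PC9-AMG was 0.16 ± 0.09 (adjusted p = 0.294). It was lower in PC9-AMG than in PC9-BrM4 by 0.38 ± 0.09 (adjusted p = 0.0180), or -0.25 relative to all genes, which was lost without PC9-AMG library 2, PC9-BrM4 library 1 or PC9-BrM4 library 2 (adjusted p = 0.0669, 0.0695 and 0.0515) and with median centring (0.219). PSPH, the phosphatase of the last step, had 49.2 and 49.8 TPM in PC9-AMG, 55.3 and 58.5 TPM in PC9-BrM4 and 44.8 and 45.5 TPM in PC9, with differences of 0.13 ± 0.10 (adjusted p = 0.468) in PC9-AMG and 0.33 ± 0.10 (adjusted p = 0.0584) in PC9-BrM4.

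SHMT2, which splits serine into glycine and a one-carbon unit in mitochondria, was at its lowest in PC9-BrM4. It had 151 and 144 TPM in PC9-AMG, 95.2 and 96.5 TPM in PC9-BrM4 and 123 and 126 TPM in PC9. PC9-AMG was highest and PC9-BrM4 lowest, with no overlap. SHMT2 fell by 0.37 ± 0.09 (adjusted p = 0.0210) in PC9-BrM4, a call that was lost without any 1 of the 4 libraries (adjusted p between 0.0504 and 0.215), and its difference in PC9-AMG was 0.25 ± 0.09 (adjusted p = 0.119). PC9-AMG exceeded PC9-BrM4 by 0.62 ± 0.09 (adjusted p = 0.00168), or 0.75 relative to all genes, in every alternative run. MTHFD2, the next mitochondrial enzyme, ranged from 75.6 to 97.4 TPM and was called in no comparison. ALDH1L2, which oxidises mitochondrial formyl-folate, was the least abundant member, with 0.540 and 0.426 TPM in PC9-AMG, 1.71 and 1.20 TPM in PC9-BrM4 and 0.208 and 0.203 TPM in PC9. Its difference in PC9-BrM4 against PC9 was 1.02 ± 0.26 (adjusted p = 0.0267), on 1.09 and 0.730 reads per base. Leaving out any 1 of the 4 libraries gave 0.87 to 1.17 and lost the call. ALDH1L2 passed the filter only through its PC9-BrM4 libraries, so its higher level there was fixed in advance and this p lends it no support.

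**Figure D3:**
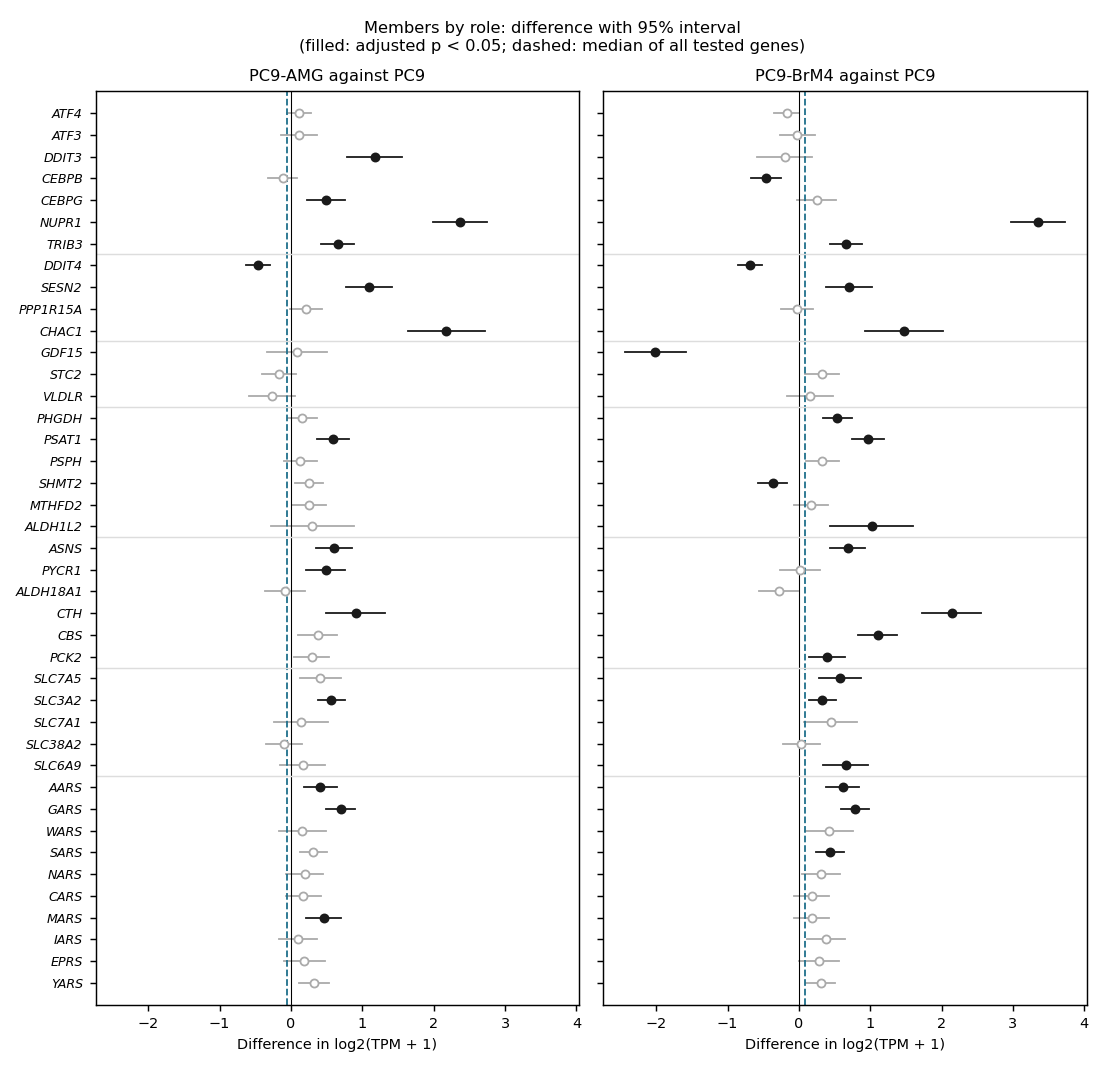
Difference of each member from PC9 in log2(TPM + 1), with 95% interval, for PC9-AMG (left) and PC9-BrM4 (right), in role order; filled points are called, and the dashed line is the median of all tested genes (-0.05 and 0.09). NUPR1 (2.36 and 3.34) lies farthest right in both panels, and GDF15 (0.08 and -2.01) changes place between them.

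ASNS, which makes asparagine and is a standard target of ATF4, rose in both derivatives. It had 97.2 and 110.0 TPM in PC9-AMG, 116 and 103 TPM in PC9-BrM4 and 64.5 and 71.2 TPM in PC9, all derivative libraries lying above PC9 and overlapping each other. ASNS rose by 0.60 ± 0.11 (adjusted p = 0.0151) in PC9-AMG, a call that was lost without PC9-AMG library 2, PC9 library 1 or PC9 library 2 (adjusted p = 0.0862, 0.158 and 0.0771), and by 0.68 ± 0.11 (adjusted p = 0.00316) in PC9-BrM4, in every alternative run. Between the derivatives its difference was -0.08 ± 0.11 (adjusted p = 0.634), with a 95% interval of -0.33 to 0.17, and 0.05 relative to all genes, so that its sign turned with the scale. Of the proline enzymes, PYCR1, which catalyses the last step, had 129 and 101 TPM in PC9-AMG, 80.2 and 84.1 TPM in PC9-BrM4 and 78.2 and 84.4 TPM in PC9. PC9-AMG was above both other groups, which overlapped. PYCR1 rose by 0.48 ± 0.12 (adjusted p = 0.0443) in PC9-AMG and was higher there than in PC9-BrM4 by 0.47 ± 0.12 (adjusted p = 0.0280), or 0.60 relative to all genes. The first call was lost without PC9-AMG library 1, PC9 library 1 or PC9 library 2 (adjusted p = 0.134, 0.294 and 0.179) and the second without PC9-AMG library 1, PC9-BrM4 library 1 or PC9-BrM4 library 2 (adjusted p = 0.103, 0.160 and 0.0717). ALDH18A1, which acts earlier in proline synthesis, ranged from 35.9 to 50.8 TPM and was called in no comparison.

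The transsulfuration enzymes CBS and CTH, which make cysteine from homocysteine and serine, were high in PC9-BrM4. CTH, the second enzyme, had 8.17 and 10.7 TPM in PC9-AMG, 25.6 and 21.4 TPM in PC9-BrM4 and 5.09 and 4.03 TPM in PC9. The 3 groups did not overlap, and PC9-BrM4 was well above the others. CTH rose by 0.91 ± 0.18 (adjusted p = 0.0211) in PC9-AMG, 2.07 times the PC9 mean, and by 2.14 ± 0.18 (adjusted p = 6.78e-05) in PC9-BrM4, 5.15 times the PC9 mean. It was lower in PC9-AMG than in PC9-BrM4 by 1.24 ± 0.18 (adjusted p = 0.00193), or -1.10 relative to all genes. The PC9-AMG rise was lost without any 1 of the 4 libraries (adjusted p between 0.0520 and 0.169), and the other calls held in every alternative run.

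CBS, the first enzyme, is listed at 2 places on chromosome 21 of hg38 (6444869 to 6468040 and 43053191 to 43076362), near-identical copies between which reads can be split, so its level is uncertain. Summed over both it had 30.6 and 28.3 TPM in PC9-AMG, 52.0 and 47.1 TPM in PC9-BrM4 and 21.3 and 23.7 TPM in PC9. PC9-BrM4 was highest and no groups overlapped. CBS rose by 1.11 ± 0.12 (adjusted p = 0.000316) in PC9-BrM4 and was lower in PC9-AMG than in PC9-BrM4 by 0.73 ± 0.12 (adjusted p = 0.00359), or -0.60 relative to all genes, in every alternative run, and its difference in PC9-AMG against PC9 was 0.38 ± 0.12 (adjusted p = 0.0900). The deposited table over all libraries gives 16.0 and 14.1 TPM in PC9-AMG, 28.1 and 27.6 TPM in PC9-BrM4 and 11.2 and 12.9 TPM in PC9, in the same order. PCK2, which makes phosphoenolpyruvate in mitochondria, had 39.8 and 37.1 TPM in PC9-AMG, 40.7 and 41.8 TPM in PC9-BrM4 and 31.4 and 31.0 TPM in PC9. All derivative libraries lay above PC9 and the derivatives did not overlap. PCK2 rose by 0.39 ± 0.11 (adjusted p = 0.0386) in PC9-BrM4. That call was lost without any 1 of the 4 libraries (adjusted p between 0.0820 and 0.272), with median centring (0.119) and with the replicate number as a block (0.0542). Its difference in PC9-AMG was 0.29 ± 0.11 (adjusted p = 0.135).

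SLC7A5 and SLC3A2 form the heterodimer that exchanges large neutral amino acids. SLC3A2, the heavy chain, had 410.2 and 377 TPM in PC9-AMG, 324 and 343 TPM in PC9-BrM4 and 263 and 267 TPM in PC9, PC9-AMG being highest and PC9 lowest without overlap. It rose by 0.57 ± 0.08 (adjusted p = 0.00680) in PC9-AMG and by 0.33 ± 0.08 (adjusted p = 0.0249) in PC9-BrM4. The first call was lost without PC9 library 1 or PC9 library 2 (adjusted p = 0.0766 and 0.0680), the second without any 1 of the 4 libraries (adjusted p between 0.0566 and 0.216) and with median centring (0.214). SLC7A5, the transporting chain, had 234 and 179 TPM in PC9-AMG, 246 and 213 TPM in PC9-BrM4 and 159.6 and 148 TPM in PC9; it varied between libraries of a derivative, and all 4 derivative libraries lay above PC9. SLC7A5 rose by 0.57 ± 0.13 (adjusted p = 0.0161) in PC9-BrM4, a call that was lost without PC9-BrM4 library 1, PC9-BrM4 library 2 or PC9 library 2 (adjusted p = 0.136, 0.0502 and 0.105), and its difference in PC9-AMG was 0.41 ± 0.13 (adjusted p = 0.0840).

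SLC6A9, a glycine transporter, had 24.0 and 18.8 TPM in PC9-AMG, 31.3 and 29.4 TPM in PC9-BrM4 and 19.0 and 18.8 TPM in PC9. PC9-BrM4 lay above both other groups, which overlapped. It rose by 0.66 ± 0.14 (adjusted p = 0.0127) in PC9-BrM4, a call that was lost without PC9-BrM4 library 1, PC9 library 1 or PC9 library 2 (adjusted p = 0.0803, 0.0879 and 0.0938), and was lower in PC9-AMG than in PC9-BrM4 by 0.49 ± 0.14 (adjusted p = 0.0385), or -0.36 relative to all genes. That difference was lost without PC9-AMG library 2, PC9-BrM4 library 1 or PC9-BrM4 library 2 (adjusted p = 0.158, 0.167 and 0.0711) and with median centring (0.112), and the model overlaps that of CCDC24 on the opposite strand. The cationic amino-acid transporter SLC7A1 ranged from 13.2 to 21.6 TPM and the glutamine and alanine carrier SLC38A2 from 140.0 to 179.9 TPM, and neither was called in any comparison.

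Aminoacyl-tRNA synthetases join each amino acid to its tRNA, and the 10 synthetases among the members are named by the letters of their amino acids. All 10 lay above the median of all tested genes in PC9-AMG and in PC9-BrM4, with median differences of 0.25 and 0.35 from PC9 (0.30 and 0.26 relative to all genes), and 3 were called in each. Of all tested genes, 7.49% were called in PC9-AMG against PC9 and 16.3% in PC9-BrM4 against PC9. GARS, for glycine, had 181 and 184 TPM in PC9-AMG, 203 and 185 TPM in PC9-BrM4 and 114 and 109.9 TPM in PC9. All derivative libraries lay far above PC9. It rose by 0.70 ± 0.09 (adjusted p = 0.00374) in PC9-AMG, a call that was lost without PC9 library 2 (adjusted p = 0.0520), and by 0.79 ± 0.09 (adjusted p = 0.000414) in PC9-BrM4, in every alternative run. AARS, for alanine, had 119 and 102 TPM in PC9-AMG, 131 and 124 TPM in PC9-BrM4 and 81.1 and 84.3 TPM in PC9, with no overlap and PC9-BrM4 highest. It rose by 0.41 ± 0.10 (adjusted p = 0.0435) in PC9-AMG, a call that was lost without any 1 of the 4 libraries (adjusted p between 0.0588 and 0.313), and by 0.61 ± 0.10 (adjusted p = 0.00390) in PC9-BrM4, in every alternative run.

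MARS, for methionine, had 98.9 and 95.6 TPM in PC9-AMG, 86.5 and 74.0 TPM in PC9-BrM4 and 74.2 and 67.1 TPM in PC9, and PC9-AMG was highest while PC9-BrM4 and PC9 overlapped. It rose by 0.46 ± 0.11 (adjusted p = 0.0386) in PC9-AMG, a call that was lost without any 1 of the 4 libraries (adjusted p between 0.114 and 0.315), and its difference in PC9-BrM4 was 0.18 ± 0.11 (adjusted p = 0.312). SARS, for serine, had 224 and 211 TPM in PC9-AMG, 238 and 235 TPM in PC9-BrM4 and 168 and 181 TPM in PC9, with all derivative libraries above PC9. It rose by 0.44 ± 0.09 (adjusted p = 0.00860) in PC9-BrM4, a call that was lost without PC9 library 1 or PC9 library 2 (adjusted p = 0.141 and 0.0584) and with median centring (0.0608), and its difference in PC9-AMG was 0.31 ± 0.09 (adjusted p = 0.0559). The other 6 synthetases, WARS, NARS, CARS, IARS, EPRS and YARS, were called in no comparison, and their differences from PC9 ran from 0.10 (IARS) to 0.33 (YARS) in PC9-AMG and from 0.18 (CARS) to 0.42 (WARS) in PC9-BrM4. Between the derivatives 0 of the 10 passed the limma test at an adjusted p under 0.05, and 2 had an unadjusted p under 0.05. Of all tested genes 18.6% were called in that comparison. MARS, at 0.28 or 0.41 relative to all genes, was called there with median centring and with FPKM, and IARS without PC9-BrM4 library 2.

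**Figure D4:**
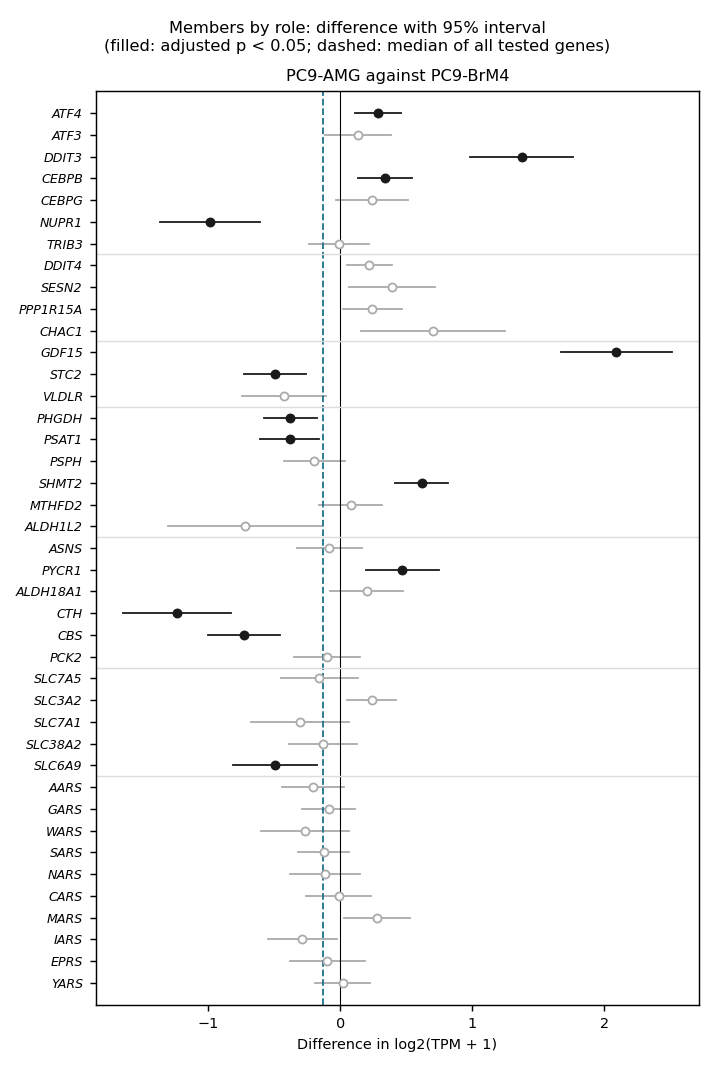
Difference of each member between the derivatives, PC9-AMG against PC9-BrM4, in log2(TPM + 1) with 95% interval, in role order; filled points are called, and the dashed line is the median of all tested genes (-0.13). GDF15 (2.09), DDIT3 (1.37) and SHMT2 (0.62) lie farthest to the right and CTH (-1.24), NUPR1 (-0.98) and CBS (-0.73) farthest to the left among called members, and the synthetases run from -0.29 (IARS) to 0.28 (MARS).

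The comparisons with PC9 use the same PC9 libraries, so their values are given side by side without a test of likeness. The 5 largest differences above PC9 in PC9-AMG were those of NUPR1 (2.36, and 3.34 in PC9-BrM4), CHAC1 (2.18, and 1.47 in PC9-BrM4), DDIT3 (1.17, and -0.20 in PC9-BrM4), SESN2 (1.10, and 0.70 in PC9-BrM4) and CTH (0.91, and 2.14 in PC9-BrM4). In PC9-BrM4 CBS (1.11, and 0.38 in PC9-AMG) and ALDH1L2 (1.02, and 0.30 in PC9-AMG) stood among the 5 largest in place of DDIT3 and SESN2. ALDH1L2 passed the filter only through its PC9-BrM4 libraries, so its place there was favoured by the filter. The difference between the derivatives was called for 13 members, against 18.6% of all tested genes. The PC9 libraries do not enter this difference but enter the variance behind its p. In a fit of the 4 derivative libraries alone 9 members were called. ATF4, CEBPB, PSAT1, PHGDH and SLC6A9 were lost (adjusted p = 0.0906, 0.0849, 0.0682, 0.0504 and 0.0750) and CHAC1 was gained. PC9-AMG was higher in GDF15, DDIT3, SHMT2, PYCR1, CEBPB and ATF4, and lower in CTH, NUPR1, CBS, SLC6A9, STC2, PSAT1 and PHGDH. The 6 that held in every alternative were DDIT3, GDF15 and SHMT2, higher in PC9-AMG, and NUPR1, CTH and CBS, lower.

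Of the 12 members with TGATGNAA in the window, 7 rose and 0 fell in PC9-AMG (CHAC1, GARS, ASNS, SLC3A2, CEBPG, MARS and AARS), and 5 rose and 0 fell in PC9-BrM4. Of the 23 matched members without it, 5 rose and 1 fell in PC9-AMG, and 10 rose and 3 fell in PC9-BrM4. Over all tested genes 3.67% were higher and 3.82% lower in PC9-AMG, and 9.89% and 6.45% in PC9-BrM4. With no variance trend, PC9-AMG calls were lost for CEBPG, ASNS, SLC3A2, MARS and AARS with the motif, and DDIT4, PSAT1 and CTH without it. In PC9-BrM4 that setting lost SLC3A2 with the motif, and PCK2, SLC7A5 and SARS without it. Median differences from PC9, relative to all genes, were 0.48 with and 0.24 without the motif in PC9-AMG, and 0.27 with and 0.23 without it in PC9-BrM4. Among the 12 members with the motif, 0 were called between the derivatives by limma, 4 having an unadjusted p under 0.05, against 4 higher and 6 lower of the 23 without it, where 6.31% of all tested genes were higher and 12.3% lower. The differences between these counts were not tested. CTH and GDF15, whose windows printed above hold no match, are among those 10. The counts between the derivatives moved with scaling. With median centring CEBPG, CHAC1, SLC3A2 and MARS, which hold the motif, were called higher in PC9-AMG. That setting also gained DDIT4, SESN2, PPP1R15A and ALDH18A1 without the motif, and lost STC2, PHGDH, PSAT1 and SLC6A9 without it. With FPKM, CHAC1, SLC3A2 and MARS were called as well.

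Chromosomal neighbours of some members also differed between groups. Up to 25 tested genes on each side of a member were taken, and their median difference was set relative to that of all tested genes. Around SHMT2 on chromosome 12 (57229573 to 57234935) the neighbours stood at -0.50 in PC9-BrM4 against PC9, where SHMT2 itself stood at -0.46 on the same scale, and at 0.48 between the derivatives, where SHMT2 stood at 0.75. DDIT3 (57516588 to 57520517) and MARS lie in the same stretch. MARS stood at 0.41 between the derivatives, where its neighbours stood at 0.46. In PC9-BrM4 against PC9 MARS stood at 0.09 and its neighbours at -0.50. DDIT3 stood at 1.5 between the derivatives, where its neighbours stood at 0.46, and at 1.22 in PC9-AMG against PC9, where they stood at 0.00. ASNS on chromosome 7 (97852117 to 97872542) was at 0.60 in PC9-BrM4 and its neighbours at -0.32. PYCR1 on chromosome 17 stood at 0.53 in PC9-AMG against PC9, where its neighbours stood at 0.24. Between the derivatives PYCR1 stood at 0.60 and its neighbours at 0.27. Around NUPR1, CTH, CHAC1 and GDF15 the neighbours lay between -0.10 and 0.08 in PC9-BrM4. Around the second listed place of CBS they stood at 0.23 in that comparison, where CBS stood at 1.02. Neighbours of GARS and AARS stood at 0.17 and 0.17, and these members at 0.70 and 0.53. Those of PSAT1 stood at -0.10, and PSAT1 at 0.88. The part of neighbouring genes' shifts in the members' differences was not tested.

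**Figure D5:**
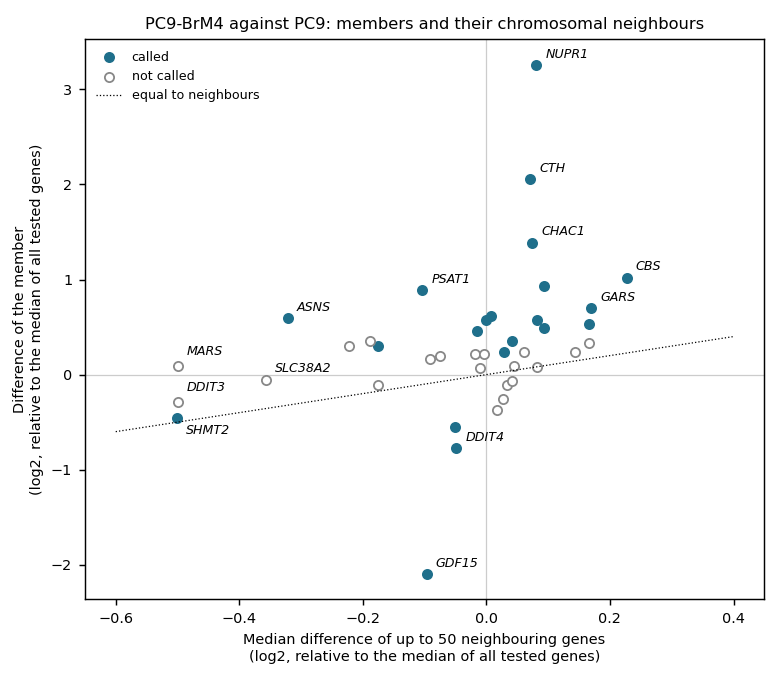
Difference of each member in PC9-BrM4 against PC9 (vertical) plotted over the median difference of its chromosomal neighbours (horizontal), both in log2 relative to the median of all tested genes; filled points are called and the dotted line marks equal values. CBS is plotted at the second of its listed places. SHMT2 (-0.46) lies close to the line, its neighbours at -0.50, whereas NUPR1, CTH, CHAC1 and GDF15 have neighbours near 0.

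Other genes of the pathway were taken as lists. Over all tested genes, 7.49% were called in PC9-AMG against PC9, 3.67% higher and 3.82% lower. In PC9-BrM4 against PC9 16.3% were called, 9.89% higher and 6.45% lower. List counts near these shares are no result about the list. Of 13 genes of the eIF2-alpha kinases, phosphatase and eIF2B, 0 were called in PC9-AMG against PC9 by limma (4 had an unadjusted p under 0.05), and 2 rose in PC9-BrM4, the eIF2B subunits EIF2B2 (0.52, adjusted p = 0.00401) and EIF2B3 (0.41, adjusted p = 0.0448). The list's median relative to all tested genes was 0.07 in PC9-AMG and 0.12 in PC9-BrM4. Of 23 other tested ATF4 targets, 2 rose and 2 fell in PC9-AMG, and 4 rose and 3 fell in PC9-BrM4, with medians of 0.23 and 0.01 on that scale. SLC1A5, a glutamine transporter, had 163 and 147 TPM in PC9-AMG, 119.9 and 117 TPM in PC9-BrM4 and 89.5 and 94.6 TPM in PC9 and rose in PC9-AMG by 0.74 (adjusted p = 0.00374) and in PC9-BrM4 by 0.36 (0.0313). GADD45A, a growth-arrest gene, had 233 and 284 TPM in PC9-AMG, 182 and 176 TPM in PC9-BrM4 and 158 and 177 TPM in PC9 and rose in PC9-AMG by 0.61 (adjusted p = 0.0140). JDP2, a basic leucine zipper repressor, fell in PC9-AMG by 0.45 (adjusted p = 0.0401) and rose in PC9-BrM4 by 0.48 (adjusted p = 0.0176). Among the 3 that fell in PC9-BrM4 was HMOX1, a heme-degrading enzyme, by 0.52 (adjusted p = 0.0267).

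The next lists stand beside the same shares over all tested genes, 7.49% called in PC9-AMG and 16.3% in PC9-BrM4. For the IRE1 and ATF6 arms of the unfolded protein response, 1 of 20 genes rose in PC9-AMG and 4 in PC9-BrM4. In this list 0 were lower in either, and the medians relative to all tested genes were 0.11 and 0.05. HERPUD1, of ER-associated degradation, rose in both (0.63, adjusted p = 0.0165, and 0.39, 0.0480), and the chaperones PDIA6 (0.36), CALR (0.30) and HSP90B1 (0.27) rose in PC9-BrM4. Of 10 other cytosolic synthetases 2 rose in PC9-AMG and 4 in PC9-BrM4, FARSB for phenylalanine (0.62 and 0.59) and VARS for valine (0.50 and 0.62) in both, and the medians were 0.13 and 0.20. Of 17 mitochondrial synthetases 0 were called in PC9-AMG by limma (1 had an unadjusted p under 0.05) and 1 rose in PC9-BrM4, CARS2 (0.41), with medians of 0.10 in PC9-AMG and 0.01 in PC9-BrM4. Among 14 other tested folate and glycine cleavage genes, 2 rose and 1 fell in PC9-AMG (SLC25A32, 0.57, MTHFD1L, 0.48, and AMT, -0.68) and 3 rose in PC9-BrM4 (TYMS, 0.65, and MTHFD1, 0.39, among them), with medians of 0.13 and 0.14.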

How the data were processed

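Per the labels' protocols, total RNA was extracted with TRIzol and sequenced as TruSeq Stranded mRNA libraries; per the submitters' processing notes, HISAT2 2.1.0, StringTie 1.3.4d and hg38 were used. Annotation, filters and strand use in counting are not given in the sources used here. Per the file headers, the deposited library tables hold coverage (reads per base), FPKM and TPM per gene, computed by the authors; another deposited table holds TPM over all libraries. TPM was used, coverage describes depth, and FPKM was an alternative. Values of genes with several rows (CBS and CARS among members) were summed; 40 of 41 members equal the table over all libraries within 0.001 TPM.

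Limma 3.58.1 in R 4.3.3 was fitted to log2(TPM + 1) of all 6 libraries, a mean per group, with empirical Bayes moderation and a variance trend (3 residual and 6.81 prior degrees of freedom), two-sided, with Benjamini-Hochberg adjustment over 14627 genes that reached 1 TPM in 2 or more libraries. The script was tested on simulated data. Members called in any comparison are given with values, others by range, and of each list up to 4 called genes. The members and lists were chosen with earlier results of these data known. NIBAN1 was matched under its older symbol. Alternatives were median centring, quantile normalization, pseudocounts of 0.1 and 0.5, no filter, 5 TPM, FPKM, the table over all libraries, robust moderation, no variance trend, a block for the replicate number, a fit of just the 4 compared libraries, and leaving out each library. Values of 2 listed genes that are not members are not reported here. Promoter sequences are RefSeq's, GRCh38.p14.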

Additional observations from a re-analysis of the deposited data

Results flagged for a closer look

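The change of 13 members from PC9 differed between the derivatives by the test of that difference itself, PC9-AMG minus PC9-BrM4 on the log2(TPM + 1) scale in the fit of all 6 libraries, where 18.6% of all tested genes were called. With the 4 derivative libraries alone 9 members were called. PC9-AMG was higher in GDF15 (2.09, adjusted p = 0.000119), DDIT3 (1.37, 0.000808), SHMT2 (0.62, 0.00168), PYCR1 (0.47, 0.0280), CEBPB (0.34, 0.0298) and ATF4 (0.29, 0.0298). It was lower in CTH (-1.24, 0.00193), NUPR1 (-0.98, 0.00403), CBS (-0.73, 0.00359), SLC6A9 (-0.49, 0.0385), STC2 (-0.49, 0.0116), PSAT1 (-0.38, 0.0277) and PHGDH (-0.38, 0.0180). The median of all tested genes was -0.13 in this comparison.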

How the results depend on the processing

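No called member reversed its direction under any alternative; ALDH1L2 had no value with the 5 TPM filter or with FPKM. Calls held in every alternative for 3 of 15 members in PC9-AMG against PC9 (NUPR1, SESN2 and CHAC1), 11 of 21 in PC9-BrM4 against PC9 and 6 of 13 in PC9-AMG against PC9-BrM4. Members called in PC9-AMG against PC9 numbered 8 with no filter and 6 with no variance trend, and between 3 and 10 when 1 library was left out. In PC9-BrM4 against PC9 they numbered between 12 and 19 when 1 library was left out. Between the derivatives they numbered 7 with no variance trend and between 6 and 13 when 1 library was left out. Besides calls lost with 1 library left out, calls were lost as follows. In PC9-AMG against PC9, PYCR1 with quantile normalization, PYCR1 and AARS with a pseudocount of 0.1, DDIT3, CEBPG, ASNS, PYCR1, CTH, AARS and MARS with no filter, CEBPG, DDIT4, PSAT1, ASNS, PYCR1, CTH, SLC3A2, AARS and MARS with no variance trend and CEBPG, PYCR1 and AARS in the fit of the 4 compared libraries. In PC9-BrM4 against PC9, PCK2, SLC3A2 and SARS with median centring, PCK2 with quantile normalization, SLC7A5 with no filter, PCK2 and SLC3A2 with FPKM, SHMT2, PCK2, SLC7A5, SLC3A2 and SARS with no variance trend and PCK2 with the block. In PC9-AMG against PC9-BrM4, STC2, PHGDH, PSAT1 and SLC6A9 with median centring, PSAT1 and SLC6A9 with quantile normalization, PYCR1 and SLC6A9 with no filter, PHGDH, PSAT1 and SLC6A9 with FPKM, ATF4, CEBPB, STC2, PHGDH, PSAT1, PYCR1 and SLC6A9 with no variance trend and ATF4, CEBPB, PHGDH, PSAT1 and SLC6A9 in the fit of the 4 compared libraries. Leaving out a library means fewer libraries in the fit and a single one in its group, taken to vary as much as those of the other groups; otherwise the cause was not tested. With the replicate number as a block, 16, 21 and 14 members were called in these 3 comparisons, and deviations of same-numbered libraries correlated at 0.003, -0.04 and 0.03 between groups, so the numbers were not taken to pair libraries. Over all tested genes, the 1096 calls in PC9-AMG against PC9 became 250 with no filter, 325 with no variance trend and 131 to 369 with 1 library left out; the 2389 in PC9-BrM4 against PC9 became 892 to 1726 with 1 left out; and the 2720 between the derivatives became 1799 with no filter and 1024 to 2886 with 1 left out. The members' median relative to all genes stayed positive in every alternative against PC9 (0.26 to 0.35 in PC9-AMG and 0.21 to 0.27 in PC9-BrM4), and between the derivatives it was 0.04, and -0.01 with quantile normalization or no filter. Depth in reads is unknown, and levels of ALDH1L2, of CHAC1 and NUPR1 in PC9 and of GDF15 in PC9-BrM4 rest on the fewest reads per base.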

Other observations

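GDF15, SESN2 and several other stress genes are also p53 targets, so 20 tested p53 targets were counted beside them. In PC9-AMG against PC9, 3 rose and 1 fell, where 7.49% of all tested genes were called, and in PC9-BrM4 against PC9 4 rose and 0 fell, where 16.3% were called. AEN, an exonuclease of p53-driven apoptosis, had 10.3 and 9.94 TPM in PC9-AMG, 7.77 and 8.11 TPM in PC9-BrM4 and 4.68 and 3.35 TPM in PC9, all derivative libraries lying above both PC9 libraries. It rose by 1.16 in PC9-AMG (adjusted p = 0.00802) and by 0.85 in PC9-BrM4 (0.0114). PLK3, a stress-activated kinase, rose by 0.68 in PC9-AMG (adjusted p = 0.0259) and by 0.69 in PC9-BrM4 (adjusted p = 0.0111). TP53INP1 fell in PC9-AMG by 0.88 (adjusted p = 0.0308). The median of the list, relative to all tested genes, was 0.15 in PC9-AMG and -0.005 in PC9-BrM4.

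ALDH1L1, the cytosolic relative of ALDH1L2, had 32.8 and 29.6 TPM in PC9-AMG, 19.8 and 18.3 TPM in PC9-BrM4 and 23.1 and 21.8 TPM in PC9 and was higher in PC9-AMG than in PC9-BrM4 by 0.68 (adjusted p = 0.00570). ALDH1L2, which was tested because of its PC9-BrM4 libraries, stood the other way between the derivatives, at -0.72 (adjusted p = 0.0815). HMOX1, a heme-degrading enzyme counted here among the ATF4 targets, had 25.5 and 23.6 TPM in PC9-AMG, 16.7 and 14.3 TPM in PC9-BrM4 and 22.1 and 23.0 TPM in PC9 and fell in PC9-BrM4 by 0.52 (adjusted p = 0.0267).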
